A study of Homo sapiens with 3 samples.

Results

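Transcripts of the interleukin-1 (IL-1) family were examined in PANC-1, a line grown from a human pancreatic carcinoma, under 2 inhibitors of protein phosphatase 2A (PP2A). The 10 genes were the ligands IL1A, IL1B, IL1RN, IL18 and IL33 and the receptor chains IL1R1, IL1R2, IL1RAP, IL1RL1 and IL18R1. They were found by the RefSeq transcript accession that each array probe carries, and all 15 of their probes were taken, out of 34041 probes with a value and 19695 named genes. The rule itself used no measured value, but the family was chosen with earlier results of these arrays known. There were 3 arrays of Cy3-labelled total RNA, with 1 array per group. Control cells received no agent according to their label, which does not say whether a vehicle was given. The other cells received cantharidin or okadaic acid (OA) for 24 h. Each treated sample's own label gives 20 µM, but the treatment protocol can be read as giving that dose for cantharidin alone, so whether the agents were compared at the same dose is not certain. With a single array for each group the spread between cultures was not measured, so every difference below is a description of these arrays without a p-value. RNA came from whole cultures, in which a lower level per cell and fewer cells holding a transcript cannot be told apart.

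IL-1 family cytokines are alarm signals of epithelial and immune cells. IL1A and IL1B bind the receptor chain IL1R1, which then recruits IL1RAP, and the pair signals through MYD88 and IRAK kinases to NF-κB and MAP kinases. IL1RN occupies IL1R1 without signalling, and IL1R2 is a decoy that binds the ligand but lacks the signalling domain. IL18 acts through IL18R1 with IL18RAP, and IL33 through IL1RL1, also called ST2, again with IL1RAP. In pancreatic cancer, IL-1 made by tumour cells is known to stimulate the surrounding stroma. PP2A restrains several kinases of these pathways, and the study used both agents to ask how its inhibition alters factors that promote vessel growth.

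The start regions of IL1A and IL1B, the classical agonists, are shown because these neighbours on chromosome 2 gave different patterns under cantharidin. Each line holds the 250 bases before a start site, read 5′ to 3′ on the minus strand from RefSeq windows of GRCh38.p14, at chr2:112784494-112784743 for IL1A and chr2:112836780-112837029 for IL1B. Capitals mark an AP-1 motif (TGANTCA) in IL1A and a C/EBP motif (TTGCNNAA) in IL1B.
IL1A: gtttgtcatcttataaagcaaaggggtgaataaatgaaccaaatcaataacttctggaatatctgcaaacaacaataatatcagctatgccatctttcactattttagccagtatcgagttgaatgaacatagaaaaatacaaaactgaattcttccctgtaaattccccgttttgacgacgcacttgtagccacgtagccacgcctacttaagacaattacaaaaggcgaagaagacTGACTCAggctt
IL1B: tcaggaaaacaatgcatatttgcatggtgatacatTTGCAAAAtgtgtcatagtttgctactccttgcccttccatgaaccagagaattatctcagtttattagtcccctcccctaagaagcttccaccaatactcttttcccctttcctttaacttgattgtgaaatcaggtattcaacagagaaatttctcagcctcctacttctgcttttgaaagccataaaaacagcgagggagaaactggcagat

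Windows of this length were available for 9 of the 10 genes, 19 windows in all, and IL18 was not analysed here. The motifs were searched on both strands, with the NF-κB consensus as the third. The AP-1 motif of IL1A began 12 bases before the start, and the same match lies 105 bases before a second RefSeq start of the gene, whose window overlaps and holds another match at 55 bases. The C/EBP motif of IL1B began 215 bases before its start. AP-1 also matched in windows of IL1RN and IL1RL1, so that 4 of the 19 member windows held it. Neither IL1A nor IL1B matched the NF-κB consensus in these bases, although windows of IL1R2 and IL18R1 did. Over all 35116 windows of the table, 6.57% held AP-1, 9.05% C/EBP and 9.96% the NF-κB consensus. No matches of different motifs overlapped in the member windows. A match describes the letters only, and binding was not measured.

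A spot counts as well above background by the scanner software's own flag. This held for 10 of the 15 probes in some group and for 9 of them in every group. The 10 probes stood for 7 genes. The other 5 probes, for IL1R2, IL1RL1 and IL18R1, were below this limit in all cells. The lowest signal that counted as well above background was 35.0 intensity units on the control array, 21.9 with cantharidin and 58.0 with OA. Intensities are given as scanned, while log2 differences and folds are given after each array was divided by its 75th percentile, which was 784, 713 and 936 units in the same order. IL1A, IL1B and IL18 had 10 spots per array, so the spread between their spots could be seen. The other probes had 1 spot, and their error was taken from 10-spot probes of like brightness. These errors cover spot noise within an array and not culture or labelling.

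**Figure D1:**
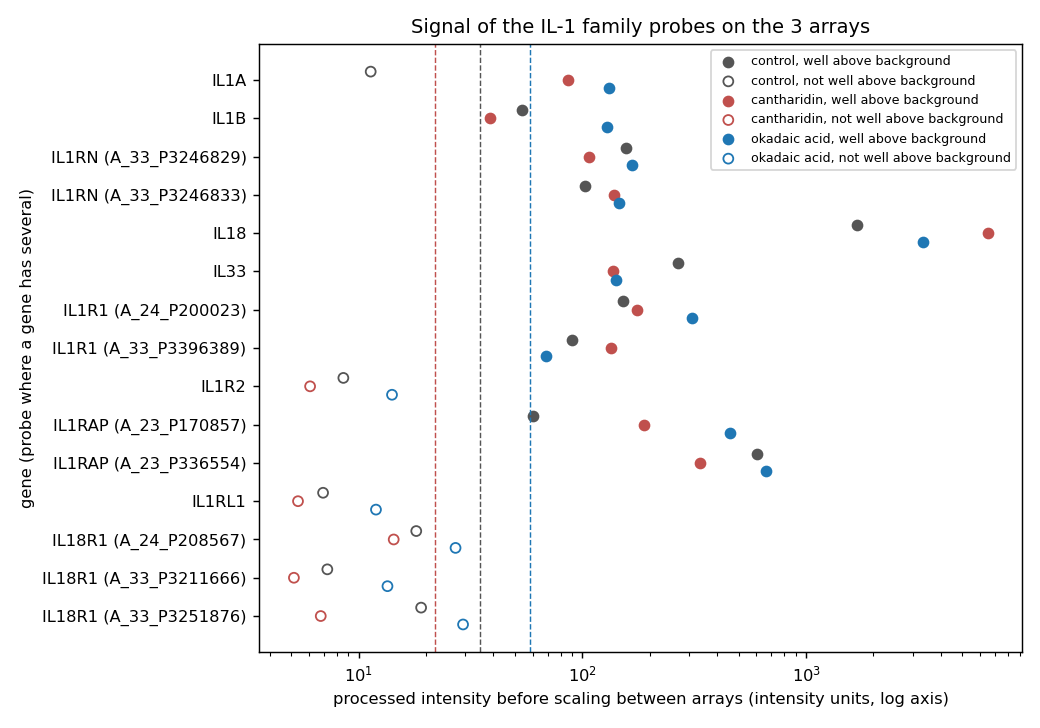
Processed intensity of the 15 IL-1 family probes on the 3 arrays, control in grey, cantharidin in red and okadaic acid in blue (x, intensity units on a log axis, before scaling between arrays), with a row for each gene or probe. Filled points were well above background and open points were not, and dashed lines mark the lowest signal well above background on each array (35.0, 21.9 and 58.0). IL1R2, IL1RL1 and IL18R1 have open points only, and IL1A has an open point only in control cells.

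Among the agonist ligands, IL1A went from below the limit of measurement in control cells to a dim but measured signal with both agents. IL1A encodes IL-1α, which is stored in epithelial cells and released on injury. Its 10 control spots ran from 7.13 to 31.6 units with a median of 8.61, and none was well above background. The 9 usable spots with cantharidin lay between 74.8 and 98.7 with a median of 89.1, and those with OA between 120 and 139 with a median of 132. Every treated spot was brighter than every control spot, on the scaled values too. The same held with cantharidin for 33.0% of all 10-spot probes compared and with OA for 37.7%. IL1A was thus at least 2.72-fold higher with cantharidin and at least 3.16-fold higher with OA. Such a bound sets an array without the flag at the lowest signal counted as well above background, or at the probe's own signal where that is higher. On the processed values as they stand, with control below the limit, the log2 differences were 3.08 ± 0.24 and 3.29 ± 0.24 (SE over spots). The bounds hold for these background-subtracted values only, since normexp background correction gave differences of 0.82 and 0.94, which are smaller than the bounds. After scaling, the spots of the treated arrays overlapped, and the difference of OA from cantharidin was 0.21 ± 0.04. The study had named IL1A as upregulated from these same arrays, so its direction is not independent evidence. Separately, the study reported higher IL-1α protein with both agents on antibody arrays, and measured the transcript by real-time PCR. Those measurements are not part of these data.

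IL1B, which encodes the secreted agonist IL-1β, was higher with OA than with cantharidin or in control cells. Its control spots ran from 32.9 to 96.3 units with a median of 54.2, and 7 of the 10 were well above background. With cantharidin the range was 27.1 to 51.2 with a median of 41.8, again with 7 of 10 spots above that limit. With OA it was 114 to 150 with a median of 129, and all 10 spots were above it. The cantharidin spots overlapped those of control cells, whereas all OA spots were brighter than all cantharidin spots, as for 41.5% of 10-spot probes. On the scaled values the lowest OA spot just overlapped the highest control spot. IL1B was 2.00-fold higher with OA (log2 difference 1.0 ± 0.16) and 1.26-fold lower with cantharidin (-0.33 ± 0.18). Set directly against cantharidin, OA gave 2.53-fold more signal (1.34 ± 0.11). All 3 arrays lay within 2.21 times the lowest measurable signal, so the gene was near the floor throughout, and with normexp OA differed by 0.43 from control and by 0.53 from cantharidin, both below 1.5-fold.

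IL18 was higher with both agents, and more so with cantharidin. It encodes a cytokine that many epithelial cells hold as an inactive precursor. Its 10 spots ran from 1661 to 1720 units in control cells, from 5762 to 6942 with cantharidin and from 2868 to 3624 with OA. No spot of any array overlapped with another array. IL18 was 4.22-fold higher with cantharidin (2.08 ± 0.03) and 1.65-fold higher with OA (0.72 ± 0.03). The difference between the agents was 2.56-fold in favour of cantharidin (-1.36 ± 0.04 for OA minus cantharidin), the opposite order to IL1B. Such separation of spots was common on these arrays, since spots did not overlap for 74.9% of the 10-spot probes with cantharidin and for 77.2% with OA, each against control, and for 71.9% between the agents.

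**Figure D2:**
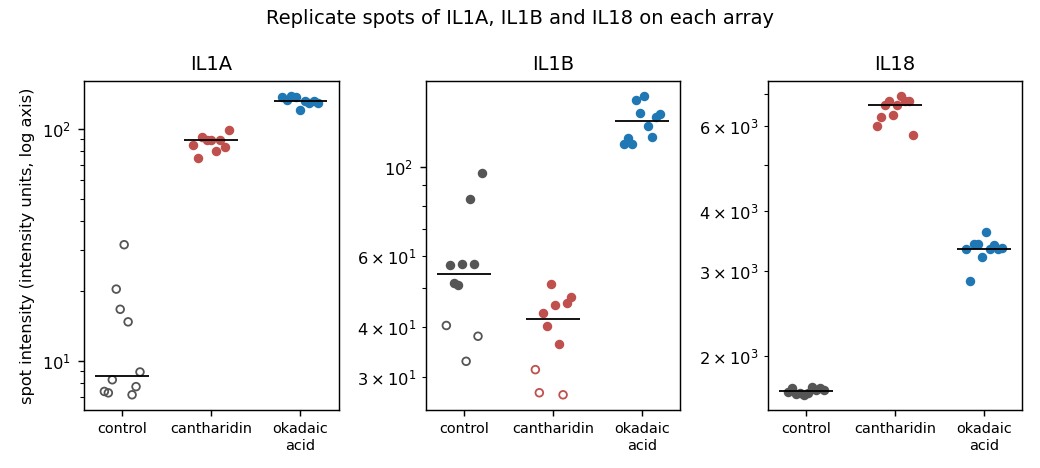
Intensity of each replicate spot of IL1A, IL1B and IL18 (y, intensity units on a log axis, before scaling) on the 3 arrays, with filled points for spots well above background, open points for the rest and a line at the median. OA spots are the highest for IL1A and IL1B, while cantharidin spots, from 5762 to 6942, are the highest for IL18.

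Among the 5 member ligands, IL33 was the one at least 1.5-fold lower with both agents. It encodes a nuclear alarmin of barrier cells, which activates ST2 once set free. Its signal was 266 units in control cells, 137 with cantharidin and 142 with OA. Control was the high array, and the treated arrays were close to each other before scaling. The fold was 1.76 lower with cantharidin (log2 difference -0.82 ± 0.13) and 2.24 lower with OA (-1.17 ± 0.16). Between the agents it differed by 1.27-fold. With normexp the cantharidin difference was -0.50, short of 1.5-fold.

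The antagonist IL1RN showed no difference of 1.5-fold on either of its probes. Probe A_33_P3246829 gave 157, 107 and 167 units in control, cantharidin and OA cells. Probe A_33_P3246833 gave 102, 139 and 146 units. With cantharidin the probes went in different directions, with log2 differences of -0.42 ± 0.16 and 0.58 ± 0.17, and the second value lay just under the threshold, which it passed in 4 of 7 other settings. With OA they were -0.17 ± 0.16 and 0.25 ± 0.19.

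For the receptors, the largest difference of a probe measured on all arrays was found in IL1RAP, the co-receptor shared by IL-1 and IL-33. Its probe A_23_P170857, annotated to NM_002182, gave 60.1 units in control cells, 188 with cantharidin and 457 with OA. Control was the lowest and OA the highest array. This was 3.43-fold higher with cantharidin (1.78 ± 0.24) and 6.36-fold higher with OA (2.67 ± 0.23), and OA was 1.85-fold above cantharidin. The control signal was 1.72 times the lowest measurable one, and the size differed between settings. With normexp the log2 differences were 1.0 and 1.61, and with the deposited normalized values 2.26 and 3.18.

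The second IL1RAP probe, A_23_P336554, annotated to NM_134470, did not follow. It gave 602, 337 and 659 units, so that cantharidin was the low array and the remaining pair was close. It was 1.63-fold lower with cantharidin (-0.70 ± 0.10) and differed from control by 1.09-fold with OA (-0.13 ± 0.08). NM_002182 stands for the membrane-bound co-receptor and NM_134470 for a shorter, soluble form. Probe sequences were not used here, so which transcripts each probe binds was not tested.

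IL1R1, the signalling receptor for IL-1α and IL-1β, also depended on the probe, although both of its probes carry the same accession. Probe A_24_P200023 gave 151, 176 and 309 units in control, cantharidin and OA cells, highest with OA. Probe A_33_P3396389 gave 89.4, 134 and 68.6 units, highest with cantharidin. The first was 1.71-fold higher with OA (0.78 ± 0.13) and 1.28-fold higher with cantharidin, and with normexp the OA difference was 0.56, below 1.5-fold. The second was 1.65-fold higher with cantharidin (0.72 ± 0.19) and 1.56-fold lower with OA (-0.64 ± 0.27), where its signal was 1.18 times the lowest measurable one. The cantharidin value fell short of the threshold in 2 of 7 other settings and the OA value in 3. A direction for IL1R1 under OA cannot be read from these probes.

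The remaining receptors were not measured at these signals. IL1R2, the decoy, gave 8.54, 6.06 and 14.1 units, and IL1RL1, the IL-33 receptor, gave 6.93, 5.35 and 11.9 units in control, cantharidin and OA cells. The 3 probes of IL18R1, the IL-18 receptor chain, ranged from 5.13 to 29.3 units over all arrays. Each value stayed below the lowest signal counted as well above background on its array, and no fold was formed.

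**Figure D3:**
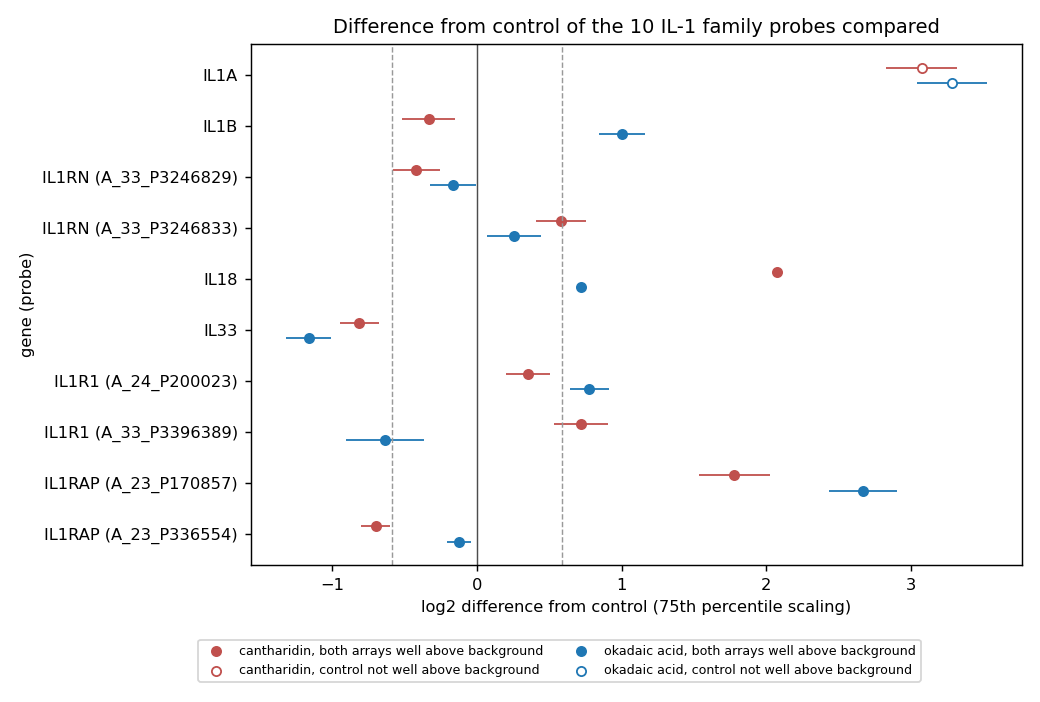
Log2 difference from control (x, after scaling to the 75th percentile) for the 10 IL-1 family probes compared, with cantharidin in red and okadaic acid in blue. Bars show the error from spot spread, dashed lines mark 1.5-fold, and open points mark IL1A, whose control signal was not well above background. IL1A, IL18 and an IL1RAP probe lie to the right of the threshold with both agents, and IL33 lies to the left.

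Counted together, 4 of the 10 probes compared were at least 1.5-fold higher with cantharidin and 2 were lower, while 26.4% of all probes compared on the arrays were higher and 33.0% lower. With OA, 5 were higher and 2 lower, against 26.5% higher and 27.7% lower among all probes. The median log2 difference of the 10 probes was 0.47 with cantharidin and 0.49 with OA, beside -0.17 and -0.01 over all probes. Taken by gene, with the brightest probe of each of the 7 genes compared, the medians were -0.33 and 0.72. Over all genes they were -0.16 and 0.01. The sign of the cantharidin median thus depended on whether probes or genes were counted. OA against cantharidin gave 2 higher, IL1B and the NM_002182 probe of IL1RAP, and 2 lower, IL18 and an IL1R1 probe, where 28.0% of all probes were higher and 22.5% lower. Counts this small next to such shares single out nothing about the family. Both agents were set against the same control array.

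The rest of the family was read from gene lists, with a gene represented by its brightest probe. Of all genes, 27.5% were at least 1.5-fold higher and 34.1% lower with cantharidin, and 28.1% and 28.8% with OA. Among 5 further ligands with a value, 1 was higher and 2 lower with cantharidin, and 2 were higher and 2 lower with OA. The list median was -0.26 with cantharidin and 0.34 with OA, beside -0.16 and 0.01 over all genes. With normexp the OA median of the list was 0.08. IL36G, an epithelial agonist, did not carry the background flag in control cells (36.2 units, its own signal serving for the bound) and was at least 2.22-fold higher with cantharidin (72.8 units) and at least 4.39-fold higher with OA (190 units). IL36RN, the antagonist of the IL-36 receptor, gave 93.3 units in control, 34.1 with cantharidin and 16.2 with OA, where it was no longer well above background. It was 2.48-fold lower and at least 1.92-fold lower. IL37, an inhibitory member, was 1.97-fold lower with cantharidin and 2.23-fold lower with OA. IL36B was 1.41-fold and 1.52-fold higher, and IL1F10 differed by less than 1.5-fold from control with both agents. IL36G was named after its values were seen.

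Of 6 further receptors and binding proteins, 1 was higher and 2 lower with cantharidin, and 1 was higher and 1 lower with OA. The medians were -0.49 and 0.15, and with normexp the cantharidin median was -0.22. IL18RAP, the co-receptor of IL-18, was 3.41-fold higher with cantharidin and 2.27-fold higher with OA on its brighter probe, at 554, 1719 and 1500 units. Its dimmer probe differed by 1.22-fold and 1.81-fold. SIGIRR, a receptor-like inhibitor of IL-1 signalling, gave 9648 units with cantharidin and 29432 with OA, which was 1.78-fold below control and 1.30-fold above it. IL1RAPL2 was 2.55-fold lower with cantharidin and differed by 1.04-fold with OA. IL18BP, which neutralises IL-18, was 1.55-fold lower with OA and 1.26-fold lower with cantharidin. IL1RAPL1 differed by 1.43-fold and 1.28-fold.

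Downstream, 8 of 13 signalling genes compared were higher and 1 lower with cantharidin, and 7 of 14 were higher and 2 lower with OA. Over all genes 27.5% were higher and 34.1% lower with cantharidin, and 28.1% and 28.8% with OA. The medians of the list were 0.89 and 0.45, beside -0.16 and 0.01 over all genes. The adaptors around the kinase TAK1 differed among themselves. TAB3 was 5.14-fold higher with cantharidin and 5.93-fold higher with OA, TAB2 2.98-fold and 2.50-fold higher, and MAP3K7, which encodes TAK1, 2.72-fold and 2.09-fold higher. The dimmer TAB2 probe gave 1.36-fold and 1.84-fold. TAB1 was 4.10-fold and 5.17-fold lower, while its second probe did not exceed background on the arrays. TRAF6, the ubiquitin ligase that links IRAK kinases to TAK1, was 3.61-fold and 3.86-fold higher. IRAK1 passed the threshold in opposite directions, 2.19-fold higher with cantharidin and 1.60-fold lower with OA, and its second probe gave 1.77-fold and 1.74-fold in the same directions.

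Genes that process IL-1 family precursors were divided. With cantharidin 5 of 9 compared were higher and 2 lower, with a median of 0.93. With OA 3 of 8 were higher and 2 lower, with a median of 0.05. The cantharidin median was 0.37 with normexp, and 0.45 without a filter or with dim signals set at the floor. Over all genes 27.5% were higher and 34.1% lower with cantharidin, and 28.1% and 28.8% with OA. PYCARD, the inflammasome adaptor ASC, gave 3863 units in control cells, 275 with cantharidin and 645 with OA, and was 12.8-fold and 7.15-fold lower. CAPN1, a calpain subunit, was 3.05-fold and 5.33-fold lower. CAPN2, another calpain subunit, was brighter, at 34382, 59670 and 34339 units in control, cantharidin and OA cells. It was 1.91-fold higher with cantharidin and differed by 1.20-fold with OA. CASP4 was 2.47-fold and 3.53-fold higher and CASP5 2.33-fold and 3.17-fold higher. NLRP3, an inflammasome sensor, was 4.04-fold higher with cantharidin and differed by 1.16-fold with OA. Its dimmer probe was 1.86-fold higher with cantharidin, but with OA it was lower, from 72.8 to 56.2 units and without the background flag. CASP1, the protease that cleaves the precursors of IL-1β and IL-18, stayed under the background limit in all 3 groups, at 26.6, 6.55 and 13.8 units. NLRC4, CAPN2 and CASP1 were named after their values were seen.

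Genes known to respond to IL-1 were mostly higher. Of 15, 10 were higher and 1 lower with cantharidin, and 13 were higher and 0 lower with OA. Of all genes, 27.5% were higher and 34.1% lower with cantharidin, and 28.1% and 28.8% with OA. The list medians were 1.61 and 3.36, beside -0.16 and 0.01 over all genes. This list was drawn up with earlier results of these arrays known, so its direction is not independent evidence. Beside CXCL8, at 5.57 and 6.65 on the log2 scale, CCL20 was higher by 3.80 and 5.70, CSF2 by 2.17 and 5.41, and CXCL2 by 1.61 and 6.22. A second CXCL2 probe gave 0.58 and 4.23. LCN2 went the other way between the agents, at 4.92 with cantharidin and 2.32 with OA. OA against cantharidin gave 11 of the 15 higher and 1 lower, beside 29.5% and 22.3% of all genes. CXCL1, CXCL2, CXCL8 and CSF2 were also named as upregulated by the study from these arrays, so their direction is not independent evidence. For CXCL1, CXCL8 and CSF2 the study also reported higher protein with both agents. It reported the same for IL-6, in cells and in medium. On these arrays IL6 was dim, at 60.0, 67.9 and 86.4 units in control, cantharidin and OA cells. It differed from control by 1.24-fold with cantharidin and 1.21-fold with OA. IL6 was named after its values were seen. Many signals other than IL-1 act on the genes of this list, and the part of IL-1 was not tested.

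**Figure D4:**
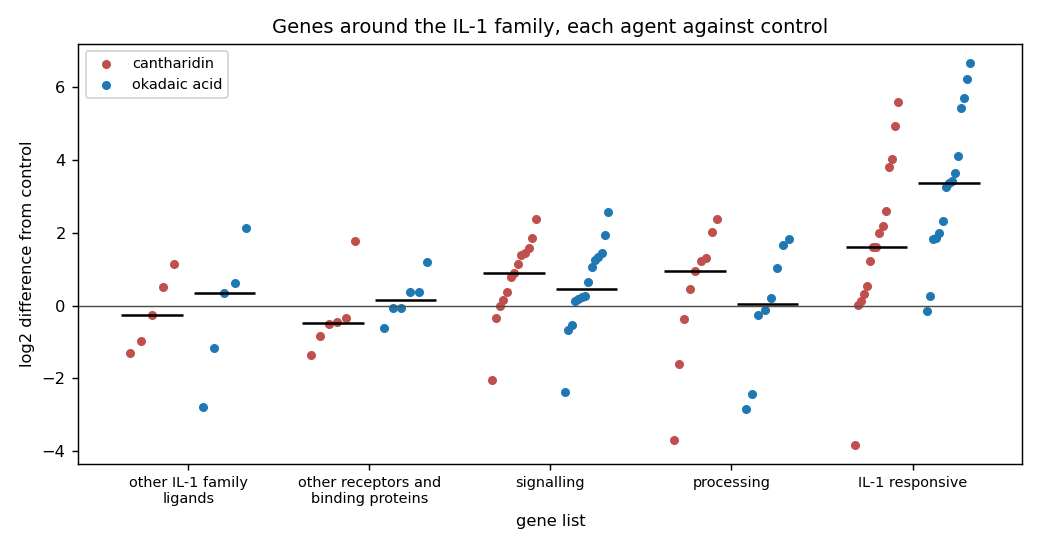
Log2 difference from control (y) of the genes in 5 lists around the IL-1 family (x), each gene a point, cantharidin in red and okadaic acid in blue, with a line at the list median. The list of IL-1 responsive genes has medians of 1.61 and 3.36, and the other medians lie between -0.49 and 0.93.

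By likeness of pattern over the 3 arrays, measured as the distance between the pairs of log2 differences from control, the nearest of 14214 genes to IL18 were POPDC2 (0.03), DYRK3 (0.04) and GTPBP2 (0.05). To IL1B they were SEMA3G (0.03), CXorf38 (0.03) and AQP11 (0.03), and to IL33 RNPEP (0.01), PIP4P2 (0.02) and LTAP1 (0.02). Within a distance of 0.25 there were 64 genes for IL18, 130 for IL1B and 242 for IL33, so many genes shared each pattern.

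The labelled line was checked against markers. All 5 epithelial and filament markers, KRT7, KRT8, KRT18, KRT19 and VIM, were well above background on every array, with VIM between 236760 and 311690 units. Of 7 leukocyte markers 6 had a value, and each was well above background on all arrays on its brightest probe. Their summed intensity was 4378.5 units in control cells, 3311 with cantharidin and 13034 with OA. Most of the last sum was CD14, a co-receptor for bacterial lipopolysaccharide, which went from 2535 units in control cells to 11044 with OA. PTPRC, the pan-leukocyte marker CD45, gave 372, 263 and 405 units on its brightest of 4 probes. Another PTPRC probe was at least 5.63-fold higher with cantharidin and at least 3.15-fold higher with OA. Of the 3 endothelial markers, CDH5 gave 411, 347 and 460 units and VWF 1814, 958 and 1090, all well above background. PECAM1 did not carry the flag on its brightest probe in any group, and 1 of its other probes carried it in control cells, at 45.0 units. The part of these signals in the IL-1 family values was not tested.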

How the data were processed

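RNA of 3 PANC-1 samples was measured on Agilent 1-colour arrays. The authors deposited the scanner output as spot intensity values from Feature Extraction 11.0.1.1, already background-subtracted and detrended within each array, with probe annotation on hg19. A second deposited file holds log2 values that the labels call normalized. How they were normalized is not given in the sources used here. Its columns tracked the log2 intensity of their own arrays, with medians of 7.74, 7.74 and 7.75, and it served as an alternative with 12 of the 15 member probes. All arrays shared a slide and a scan, and slide position cannot be told apart from group.

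Spots with outlier flags were dropped, and the mean log2 processed intensity of each probe was scaled to the 75th percentile of the array. A probe was compared if most of its spots were well above background on either array, and counted from 1.5-fold on, the fold used in the study. Where a probe lacked that flag on an array, folds are lower bounds, against the lowest flagged signal or the probe's own signal, whichever was higher. Probe accessions were looked up in a RefSeq table (GRCh38.p14) and gave 25701 probes a gene, for names and promoter windows only. Gene lists covered further ligands, receptors, signalling, processing, IL-1 responsive genes and cell markers. IL36A had no value on all arrays and LYZ no matched probe. Named list genes were at most 5 per list, with the largest difference from control under either agent among genes well above background on both arrays, plus any past 1.5-fold in opposite directions. Likeness used up to 3 members of widest range, each by its brightest probe. Members and lists were chosen with earlier results of these data known. Alternatives were normexp background correction (offset 50) of the median spot signal, 4 other scalings, 2 other filters, the deposited table, a 2-fold threshold, 2 ways of counting genes and dim signals at the floor. The counting was tested on simulated data. Normexp was run with limma 3.58.1 under R 4.3.3, and everything else under Python 3.11.15 (pandas 2.3.3, numpy 2.4.6; plots with matplotlib 3.10.9). Precision is limited by having 1 array per group.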

Additional observations from a re-analysis of the deposited data

How the results depend on the processing

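No direction of a single member probe past 1.5-fold was reversed by any background correction, scaling, value table or floor tried. Of 17 such differences, 11 stayed past the threshold under every one of these. For a gene, the direction could depend on the probe taken, as for IL1RAP with cantharidin and IL1R1 with OA. With normexp, probes lower with cantharidin numbered 1, with OA 3 were higher and 1 lower, and 1 was higher for OA against cantharidin. Under the 2-fold threshold 0 were lower with cantharidin, 3 higher and 1 lower with OA, and 1 higher for OA against cantharidin. Without scaling, 1 was lower with OA and 6 were higher for OA against cantharidin, and scaling to probes measured on all arrays left 1 lower with OA. No filter gave 6 higher for OA against cantharidin, and with the deposited values 4 were lower. Counting genes by the brightest probe gave 2 higher with cantharidin, 1 lower with OA, and 1 higher and 1 lower between the agents. By the median over probes there were 2 higher and 1 lower with cantharidin, 1 lower with OA and 1 lower between the agents. Fewer units counted and a stricter threshold lower such counts by construction, and dropping the filter can only raise them. Without scaling, every difference of OA from cantharidin kept the gap between the 75th percentiles, 936 and 713 units. The cause of the other shifts was not tested. Normexp gave the smallest differences for IL1A, 0.82 with cantharidin and 0.94 with OA. No paired analysis was possible because each group had 1 array.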

Other observations

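Within the IL-1 responsive list, chosen after the values were seen, several genes differed between the agents. CCL2, a monocyte chemokine, gave 2967 units in control cells, 192 with cantharidin and 3195 with OA, and was 14.1-fold lower with cantharidin. SOD2, the mitochondrial superoxide dismutase, was 10.3-fold higher with OA and 1.46-fold higher with cantharidin. NFKBIA, the inhibitor IκBα, was 3.96-fold higher with OA and differed by 1.02-fold with cantharidin, and ICAM1, an adhesion molecule, was 3.53-fold higher and differed by 1.08-fold. PTGS2, which encodes cyclooxygenase-2, was 16.1-fold higher with cantharidin and 12.5-fold higher with OA, and NFKBIZ, an NF-κB cofactor, was 3.95-fold and 3.58-fold higher.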
